A study of Mus musculus with 15 samples.

Results

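The genes described here are 37 lysosomal hydrolases and the proteins that help them, taken by gene name out of 57132 genes measured in mouse podocytes. The list was chosen with earlier results of these data known, so shares of members beside those of all genes are description only. By what they act on, they were 12 proteases, 13 glycosidases, 5 sulfatases, 4 enzymes that cut lipids, thioesters or phosphates, and 3 activators or cofactors. All 37 were found, and all 37 passed the minimum for testing in every comparison (0.5 units of signal or more in 3 or more of the libraries compared).

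Lysosomal hydrolases are made in the endoplasmic reticulum, and most of them receive a mannose 6-phosphate tag in the Golgi that receptors read to carry them to the lysosome, where acid and proteolytic trimming switch them on. Many of their genes carry a short E-box-like element in the promoter, called the CLEAR element, to which the factors TFEB and TFE3 bind when lysosomal work is in demand. Podocytes, the epithelial cells that wrap the filtering capillaries of the kidney, depend on this system: loss of alpha-galactosidase A (Gla) fills them with glycolipid in Fabry disease, and cathepsin L (Ctsl) is known there for cutting cytoskeletal regulators.

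RNA was sequenced from 15 libraries in 5 groups of 3. The genotype set held Col4a3+/+ and Col4a3-/- podocytes, both given Vehicle; Col4a3 encodes a collagen IV chain whose loss causes Alport syndrome. The treatment set held Col4a3-/- podocytes only, given Vehicle, APOM (apolipoprotein M, ApoM below, a plasma carrier of sphingosine-1-phosphate) or CYM (CYM50358, which blocks S1PR4, a receptor for that lipid); both agents were given for 24 hours. The study asked what blocking that receptor, or supplying that carrier, does to Alport podocytes. The labels call the cells of the genotype set a cell line. Doses, the contents of the vehicle, the age and strain of the source animals and the number of clones behind each genotype are not given in the labels, nor do the labels say that replicates were separate cultures, so p-values measure the spread between these libraries. Both sets have their own vehicle libraries and were scaled separately; tests were made only within a set.

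Recovered depth was 45417221 to 54290968 reads in the genotype set and 57735687 to 83166742 in the treatment set. Col4a3 had a mean signal of 1085 ± 168 (SD, n = 3) in Col4a3+/+ cells and 68.3 ± 11.7 in the Col4a3-/- cells beside them. In the treatment set it was 19.8 ± 4.12 with Vehicle, 22.5 ± 0.786 with ApoM and 15.5 ± 1.92 with CYM50358. Of 11 podocyte markers, Nphs1 stayed at or under a signal of 0.473 in all 15 libraries, while Synpo, Actn4 and Cd2ap were above 100 in all of them. In each comparison 9 of the 11 passed the minimum for testing. Over the 15 libraries the 11 markers summed to a signal of 2058 to 2918, under the 5771 to 8243 of 7 mesangial and fibroblast markers. Macrophages are rich in lysosomal enzymes, so their markers matter here: Adgre1 and Tyrobp had 0 reads in all 15 libraries, and the 10 leukocyte and macrophage markers summed to a signal of 24.1 to 49.4. In bulk RNA, fewer cells of a type and less RNA per cell cannot be told apart.

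Promoter sequences are shown first. Any link between them and the members that moved together was not tested. RefSeq promoters (GRCm38.p6; 250 bases before to 50 bases after a start) were matched for 33 of the 37 members, and all promoters were searched on both strands for CACGTG, the core of the CLEAR element, and for TCACGTG, which contains it. The core was found for 12 of 33 members (36.4%) and for 8.09% of all 27025 genes in the promoter table. The longer form was found for 10 of 33 members (30.3%) and for 4.29% of all genes, always as part of a core match. Of the 10 matched members whose RNA rose after CYM50358 (below), 6 held the core, and of the other 23 matched members 6 did. A match describes letters only and is not a bound site. Of 36 promoters of members, 24 had their start at the annotated start of the gene, so some windows lie at other starts.

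The stretches around the core are shown for those 6 members, 5′ to 3′ on the gene's own strand, with each CACGTG in capitals. They lie at chr2:25356383-25356422 (minus strand) for Dpp7, chr2:164833744-164833783 (plus strand) for Ctsa, chr7:142387903-142387942 (minus strand) for Ctsd, chr13:64370734-64370770 (minus strand) for Ctsl, chr11:119267806-119267845 (plus strand) for Gaa and chr11:101070004-101070043 (plus strand) for Naglu.
Dpp7: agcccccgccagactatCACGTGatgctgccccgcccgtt
Ctsa: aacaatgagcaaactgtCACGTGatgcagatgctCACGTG
Ctsd: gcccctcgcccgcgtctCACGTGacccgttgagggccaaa
Ctsl: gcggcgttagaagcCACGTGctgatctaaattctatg
Gaa: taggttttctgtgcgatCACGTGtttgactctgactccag
Naglu: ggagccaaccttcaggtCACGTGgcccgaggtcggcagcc
The first base of the core stood at -73 from the RefSeq start in both Dpp7 and Naglu, at -12 and again at 6 in Ctsa, at -98 in Ctsd (which has another at -245), at -140 in Gaa and at -236 in Ctsl. The core of Ctsl is not preceded by T on either strand, so its promoter holds only the shorter form. The matched members that rose without a core in this window were Grn, Hexa, Psap and Tpp1. The other members with a core were Arsa, Ctsf, Gla, Glb1, Lgmn and Sgsh. No promoter was matched for Aga, Ctsb, Ctsh and Galns.

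The members spanned a wide range of levels. Per kilobase of exon, the highest mean signal in vehicle-treated Col4a3-/- cells of the treatment set was 575 for Psap, the precursor of the saposins that present sphingolipids to their hydrolases. It was followed by 261 for Ctsd, an aspartic protease, and 133 for Ctsl, a cysteine protease. Ctsz, Grn and Ctsb lay close together at 78.4, 77.8 and 73.6. At the other end stood Galc at 2.28, Ctsc at 1.69 and Idua at 0.756. Psap led in all 5 groups, from 406 in Col4a3+/+ cells to 720.4 after CYM50358.

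**Figure D1:**
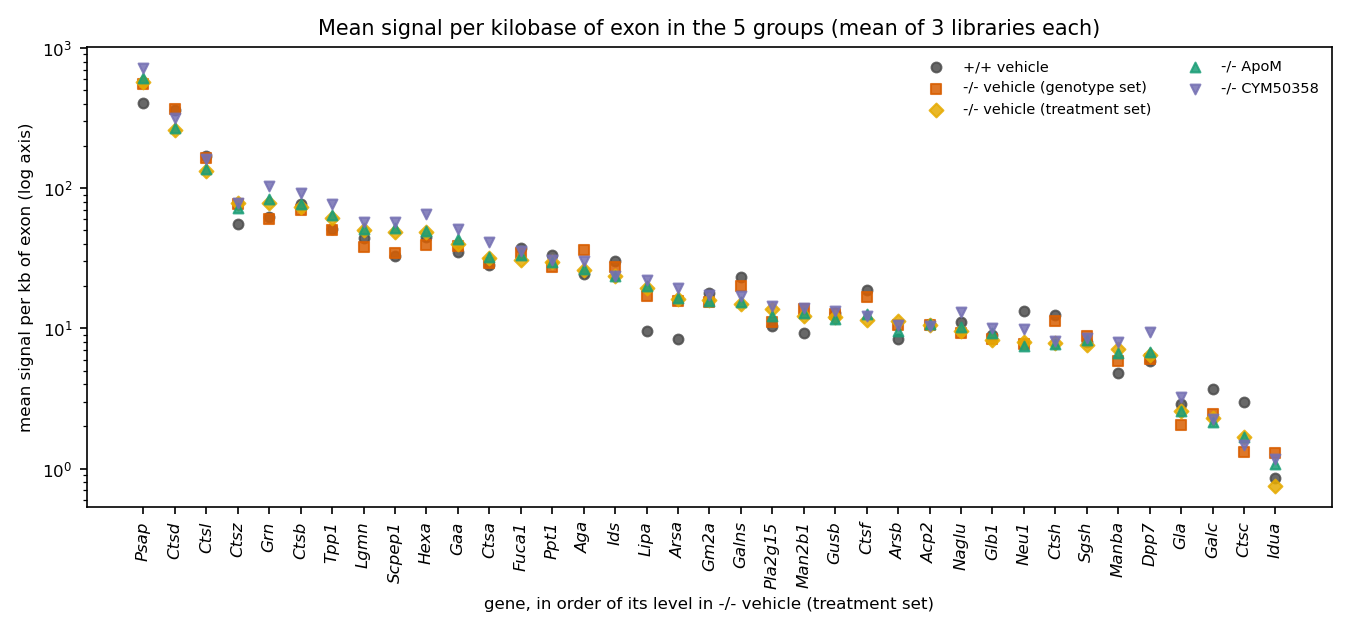
Mean signal per kilobase of exon (log axis; mean of 3 libraries) for the 37 members in each of the 5 groups, ordered by their level in vehicle-treated Col4a3-/- cells of the treatment set. Psap, Ctsd and Ctsl lead in every group and Idua is last in every group, and in Lipa, Arsa, Galc and Ctsc the Col4a3+/+ cells (dark circles) stand apart from the other groups.

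After CYM50358, lysosomal hydrolase RNA was higher than with Vehicle. Of the 37 members, 11 rose and 0 fell (limma, adjusted p under 0.05), beside 1.34% of all 13877 genes tested that rose and 1.25% that fell, 2.59% in all. They were 6 of 12 proteases (Dpp7, Ctsa, Tpp1, Ctsb, Ctsl, Ctsd), 3 of 13 glycosidases (Naglu, Hexa, Gaa) and 2 of 3 activators (Grn, Psap); 0 of 5 sulfatases and 0 of 4 lipid, thioester or phosphate enzymes passed. The rises were 0.28 to 0.53 on the log2 scale of signal + 1, a scale on which changes of low genes are understated. Across all 37 members the median log2 fold change was 0.20, beside -0.0017 over all genes tested, and 32 of 37 lay above 0. In 24 members all 3 CYM50358 libraries lay above all 3 Vehicle libraries, beside 10.5% of all genes tested; in 1, Ctsc, they lay below, beside 10.4%.

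**Figure D2:**
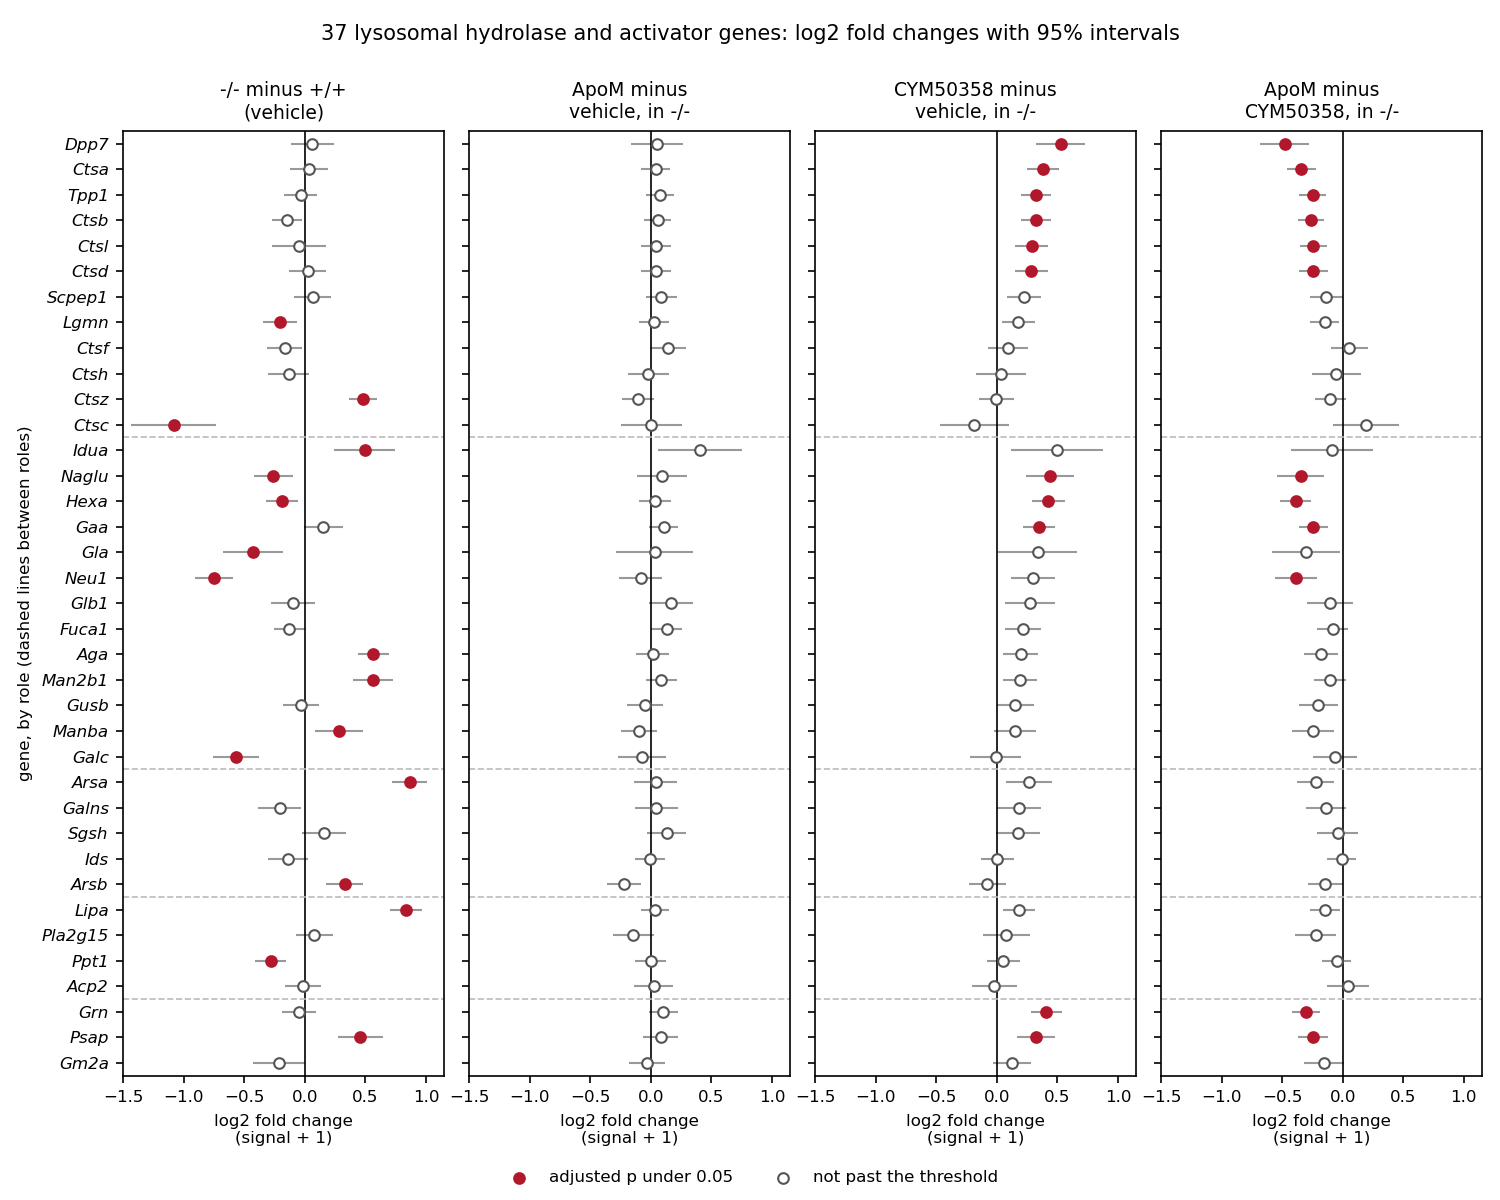
Log2 fold changes of signal + 1 (points) with 95% intervals (lines) for the 37 members in 4 comparisons, grouped by role from proteases at the top to activators at the bottom; filled points have a limma adjusted p under 0.05. The filled points after CYM50358 all lie above 0, with 11 members, those between the genotypes lie on both sides, with 9 above and 8 below, and there are none for ApoM against Vehicle.

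Among the proteases, Dpp7, a dipeptidyl peptidase of lysosomes and related vesicles, had a signal of 22.7, 22.7 and 19.7 in the 3 Vehicle libraries, 20.8, 25.7 and 21.1 with ApoM, and 30.6, 32.7 and 31.7 with CYM50358. Every CYM50358 library was above all 6 others. The log2 fold change against Vehicle was 0.53 ± 0.10 (SE; adjusted p = 0.00585), the largest among the members that passed. Ctsa, a carboxypeptidase that also shields neuraminidase and beta-galactosidase from breakdown, measured 140.3, 152 and 154 with Vehicle, 147, 152 and 158 with ApoM, and 189.5, 189.5 and 203 with CYM50358. Again the CYM50358 libraries did not overlap with either other group, and the log2 fold change was 0.38 ± 0.06 (adjusted p = 0.00271). Pltp, a phospholipid transfer protein gene that overlaps Ctsa and carries 127% of its mean signal, rose as well (0.34 ± 0.07, adjusted p = 0.0142); whether reads were counted by strand is not given in the sources used here, so the share of each in the other is uncertain.

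Tpp1, which trims tripeptides from protein ends, gave 318, 331 and 305 with Vehicle, 328, 341 and 336 with ApoM, and 391, 399 and 407 with CYM50358. Ctsb, an abundant cysteine protease, gave 444, 449 and 444, then 455, 463 and 473, and then 539, 574 and 557 in the same order of groups. For both genes the CYM50358 libraries stood clear of the other 6. Their log2 fold changes against Vehicle were 0.32 ± 0.06 each, with an adjusted p of 0.00585 for both. Fdft1, squalene synthase, overlaps Ctsb with 10.8% of its mean signal and rose by more (0.52 ± 0.10, adjusted p = 0.00609).

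Ctsl had a signal of 842, 895 and 852 with Vehicle, 898, 875 and 893 with ApoM, and 1044, 1018 and 1098 with CYM50358. Ctsd had 611, 639 and 589, then 615, 611 and 666, and then 708, 742 and 792. In each of these genes the lowest CYM50358 library was above the highest of the others. The rises were 0.29 ± 0.06 for Ctsl (adjusted p = 0.0232) and 0.28 ± 0.06 for Ctsd (adjusted p = 0.0248). The 6 other proteases did not pass: Scpep1 (a serine carboxypeptidase) had a log2 fold change of 0.22 and Lgmn (asparaginyl endopeptidase) 0.18, both without overlap between the groups. Ctsf, Ctsh, Ctsz and Ctsc lay between -0.19 and 0.09.

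Among the glycosidases, Naglu, which removes N-acetylglucosamine from heparan sulfate, had a signal of 24.3, 28.4 and 24.3 with Vehicle, 23.8, 29.0 and 29.4 with ApoM, and 33.5, 34.9 and 36.8 with CYM50358. Hexa, the hexosaminidase subunit that is lost in Tay-Sachs disease, had 91.1, 102 and 96.9, then 93.6, 103 and 101, and then 126, 134 and 130.5. Gaa, the acid alpha-glucosidase that breaks down glycogen, had 189, 204 and 184, then 198, 205 and 218, and then 233, 246 and 256. In none of these 3 genes did a CYM50358 library overlap with Vehicle or ApoM. The log2 fold changes against Vehicle were 0.44 ± 0.09 for Naglu (adjusted p = 0.0184), 0.42 ± 0.07 for Hexa (adjusted p = 0.00195) and 0.35 ± 0.06 for Gaa (adjusted p = 0.00542).

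Of the 10 glycosidases that did not pass, 9 had a log2 fold change above 0. Neu1, the sialidase that Ctsa protects, came nearest, with 31.1, 29.8 and 28.0 with Vehicle against 35.9, 36.4 and 37.9 with CYM50358 (0.30 ± 0.09, adjusted p = 0.0716). Idua, the iduronidase of heparan and dermatan sulfate breakdown and the lowest member, had a larger value with a larger error (0.50 ± 0.18, adjusted p = 0.155). The gene Dgkq overlaps Idua with 819% of its mean signal, so values of Idua are uncertain in every comparison. Fuca1, Man2b1, Aga and Glb1 lay between 0.19 and 0.28, Gla at 0.34, Gusb and Manba at 0.15, and Galc at -0.010.

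The sulfatases Arsa, Galns and Sgsh had log2 fold changes of 0.26, 0.19 and 0.17, each with CYM50358 libraries above all Vehicle libraries, but adjusted p was 0.133, 0.286 and 0.322. Ids (0.0040) and Arsb (-0.08) showed no such gap. Lipa, the acid lipase that frees cholesterol from its esters, had 137, 131 and 128 with Vehicle and 158, 148 and 145 with CYM50358, which did not pass (0.18 ± 0.06, adjusted p = 0.126). Pla2g15, Ppt1 and Acp2 lay between -0.02 and 0.08.

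Both abundant helpers rose. Grn, progranulin, whose products support several lysosomal enzymes, had a signal of 278, 279 and 254 with Vehicle, 276, 290.3 and 304 with ApoM, and 343, 367 and 366 with CYM50358. Psap had 1536, 1679 and 1522, then 1621, 1644 and 1738, and then 1880.2, 1981 and 2069.7. Both were separated without overlap, by 0.41 ± 0.06 for Grn (adjusted p = 0.00164, the smallest of the 37) and 0.32 ± 0.07 for Psap (adjusted p = 0.0248). Gm2a, the activator that lifts gangliosides to Hexa, had 66.8, 63.6 and 67.0 against 64.8, 73.6 and 77.5, which overlap (0.12 ± 0.08, adjusted p = 0.447).

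**Figure D3:**
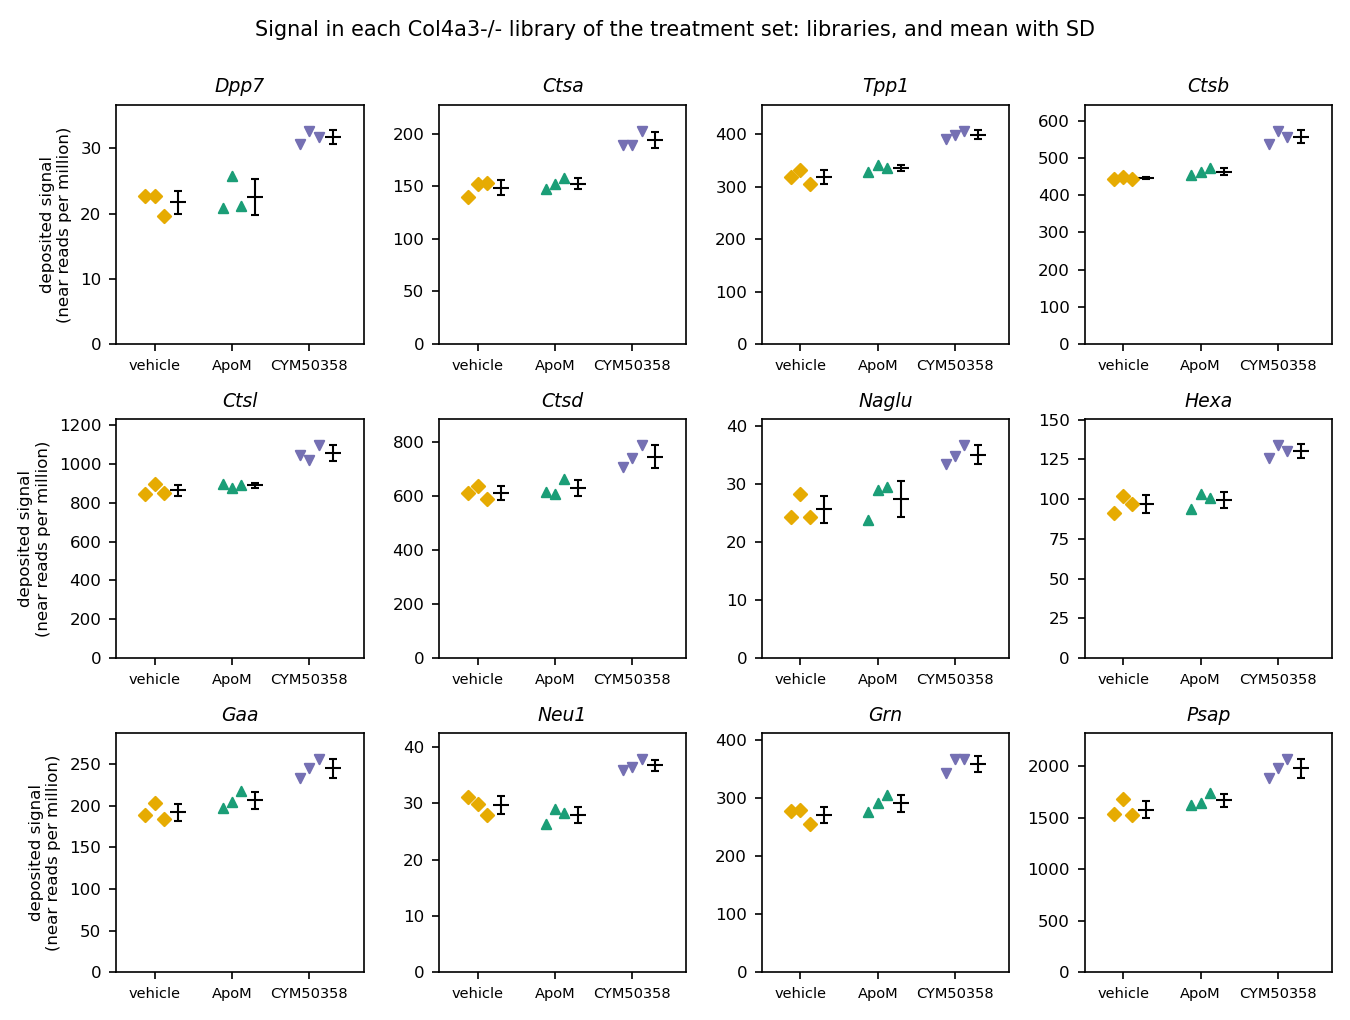
Signal (vertical axes, from 0) in each of the 9 Col4a3-/- libraries of the treatment set for the 12 members that differed between CYM50358 and Vehicle or ApoM; colored points are libraries, and the black mark beside them is the mean with its SD (n = 3). In every panel the CYM50358 points lie above all Vehicle and ApoM points, as in Dpp7, where they span 30.6 to 32.7 and the others end at 25.7.

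Summed over the 37 members, the signal was 6029 to 6454 with Vehicle, 6322 to 6585 with ApoM and 7287 to 7745 with CYM50358. That is 0.604% to 0.638%, 0.632% to 0.656% and 0.733% to 0.791% of all signal in the libraries. Mitochondrial reads also differed, with 2.60% to 3.18% with Vehicle and 3.30% to 3.46% with CYM50358, and 2 of the 3 CYM50358 libraries were deeper (82310638 and 83166742 reads) than any Vehicle library; their part in the result was not tested. The remaining CYM50358 library, replicate 1, had 60455130 reads, inside the Vehicle range, and the highest mitochondrial share, 3.46%. Leukocyte and macrophage markers summed to 42.3 to 49.4 with Vehicle and 39.4 to 44.1 with CYM50358, and the 11 podocyte markers to 2284 to 2386 and 2060 to 2119, with Nes, an intermediate filament gene, lower (-0.45 ± 0.06, adjusted p = 0.000936). The 7 mesangial and fibroblast markers summed to 6926 to 8243 with Vehicle and 6250 to 6736 with CYM50358, and the 6 endothelial markers to 0.263 to 0.434 and 0.0823 to 0.143, both without overlap. The 7 tubular markers, of which Umod and Aqp2 were at 0, summed to 328 to 425 and 304 to 362, with Lrp2 lower (-0.37 ± 0.08, adjusted p = 0.0236). The part of these markers in the result was not tested.

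**Figure D4:**
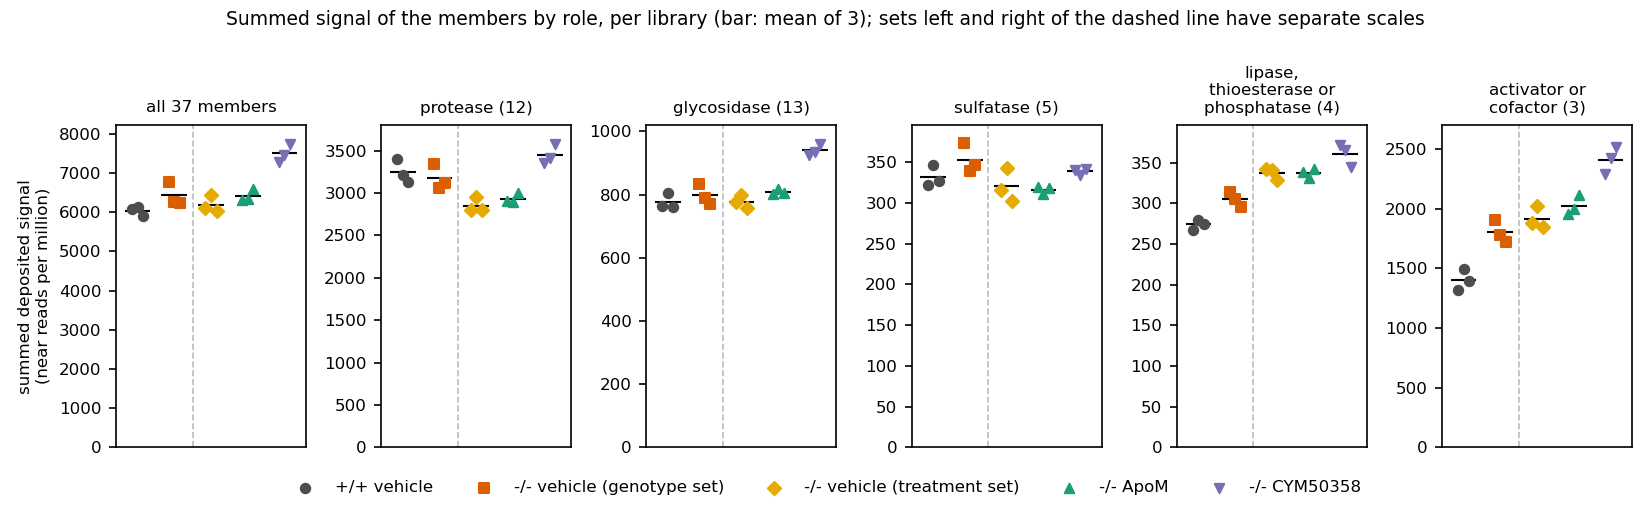
Summed signal (vertical axes, from 0) of all 37 members and of each role in every library; points are libraries and bars are means of 3, and the genotype set (left of the dashed line) and the treatment set (right) have separate scales. CYM50358 libraries lie above the other treatment libraries in the total (7287 to 7745 against at most 6585) and in every role but the sulfatases, which overlap with Vehicle.

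The count depends on single libraries. Without CYM50358 replicate 2, only Ctsa, Grn and Hexa still passed, and the other 8 had an adjusted p of 0.0529 to 0.142. Without CYM50358 replicate 3, or without Vehicle replicate 1, Ctsd, Ctsl, Naglu and Psap did not pass (0.0624 to 0.112 and 0.0535 to 0.0732), and without Vehicle replicate 3, Ctsd, Naglu and Psap did not (0.0558 to 0.068). edgeR on whole reads called the same 11 members, beside 1.9% of all genes, and DESeq2 those and 2 more (Neu1 and Scpep1), beside 6.99% of all genes, while limma without the minimum signal called 0, with the 11 at 0.144 to 0.257. By the authors' deposited table of results, 19 members were higher and 0 lower at an adjusted p under 0.05, beside 8.36% of the genes with an adjusted p there.

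Lysosomal genes outside the 37 were read from companion lists. Of 18 tested among 23 further hydrolases, 2 rose and 0 fell, beside 1.34% of all genes that rose and 1.25% that fell. That list also counts Hgsnat, which is an acetyltransferase. Pld3, a lysosomal exonuclease of the phospholipase D family, had a signal of 155, 169 and 141 with Vehicle and 191, 182 and 197 with CYM50358 (0.30 ± 0.07, adjusted p = 0.0265). Dnase2a, an acid nuclease, had 7.56, 8.28 and 9.59 against 13.9, 11.8 and 12.5 (0.54 ± 0.14, adjusted p = 0.0457). In both genes the groups did not overlap. Neither kept its call without CYM50358 replicate 2, where adjusted p was 0.0874 for Pld3 and 0.111 for Dnase2a, without CYM50358 replicate 3 (0.0864 and 0.101) or without Vehicle replicate 1 (0.0686 and 0.151). Dnase2a was also lost without CYM50358 replicate 1 (0.104) or Vehicle replicate 2 (0.125), and Pld3 without Vehicle replicate 3 (0.105). Of 16 genes for mannose 6-phosphate tagging and sorting, 0 passed, with log2 fold changes on both sides of 0: the smallest adjusted p were those of Nagpa, which uncovers the tag by removing its N-acetylglucosamine cap (0.35 ± 0.11, adjusted p = 0.0785), and M6pr, the smaller receptor for the tag (-0.20 ± 0.06, adjusted p = 0.0845). Both sulfatase-modifying factors, Sumf1 and Sumf2, did not pass.

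The counts of the next lists also stand beside 1.34% of all genes that rose. Of 5 tested inhibitors of cathepsins, 1 rose. Cstb, stefin B, which blocks cysteine cathepsins in the cytosol, had 93.4, 112 and 104 with Vehicle and 119, 125 and 138 with CYM50358 (0.30 ± 0.08, adjusted p = 0.0368). Among 11 genes for the TFE factors and their regulators, 3 rose: Mcoln1, the lysosomal calcium channel, from 40.1, 39.0 and 44.4 to 52.7, 60.9 and 53.3 (0.43 ± 0.08, adjusted p = 0.0096), and the GTPases Rragd (0.72 ± 0.17, adjusted p = 0.0259) and Rragc (0.24 ± 0.06, adjusted p = 0.0395), which carry TFE factors to the lysosome. For the factors themselves the log2 fold changes were 0.27 for Tfeb (adjusted p = 0.389), 0.01 for Tfe3 (0.96) and -0.23 for Mitf (0.536). Leaving out CYM50358 replicate 2 gave 0.127 for Cstb, 0.0961 for Mcoln1, 0.135 for Rragd and 0.159 for Rragc, and Rragc passed in 0 of the 6 fits without 1 library (0.0674 to 0.159). Mcoln1 was also lost without Vehicle replicate 2 (0.0568). Cstb and Rragd were lost without CYM50358 replicate 3 (0.143 and 0.103) or Vehicle replicate 1 (0.15 and 0.0962), Cstb without Vehicle replicate 3 (0.0668) and Rragd without Vehicle replicate 2 (0.0887).

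ApoM changed none of the 37 members detectably. In limma 0 passed, beside 0.0145% of 13839 genes tested that rose and 0.0289% that fell (0.0434% in all). edgeR and DESeq2 on whole reads also called 0, beside 0.0434% and 0.175% of all genes, and so did the authors' deposited results for the 36 members with an adjusted p there, beside 0.0628%. Without adjustment 3 members had p under 0.05, beside 5.46% of all genes. These were Arsb, arylsulfatase B, with 64.7, 71.1 and 67.6 with Vehicle and 59.3, 55.5 and 59.2 with ApoM (-0.22 ± 0.07, adjusted p = 0.514), Idua with 3.50, 2.54 and 3.48 against 4.09, 5.04 and 4.41 (0.41 ± 0.16, adjusted p = 0.814), and Fuca1, a fucosidase, with 97.9, 107 and 95.1 against 113, 108 and 107 (0.13 ± 0.06, adjusted p = 0.908). The ApoM libraries were below Vehicle in Arsb and above it in Idua without overlap, whereas in Fuca1 the groups touched. The value of Idua is again uncertain because of the overlapping gene Dgkq. Over all 37 the median log2 fold change was 0.04, beside -0.00099 over all genes, with 26 above 0 and 5 (higher) and 1 (lower) separated without overlap, beside 5.45% and 5.22% of all genes.

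The intervals for ApoM were narrow for the abundant members. The 95% interval of the log2 fold change was -0.08 to 0.16 for Ctsa, -0.10 to 0.17 for Hexa, -0.02 to 0.23 for Grn and -0.06 to 0.22 for Psap. It was wider for Idua (0.06 to 0.75) and Gla (-0.29 to 0.35). In the TFE list 0 of 11 passed, with 0.03 for Tfeb (adjusted p = 0.996), 0.07 for Tfe3 (0.968) and 0.09 for Mitf (0.992), and in the other companion lists 0 passed as well.

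The treatments were then compared directly, with the ApoM and CYM50358 libraries already used above. In ApoM relative to CYM50358, 12 members fell and 0 rose, beside 1.37% of 13878 genes that fell and 1.22% that rose (2.59% in all). They were the 11 above and Neu1. The largest differences were in Dpp7 (-0.48 ± 0.10, adjusted p = 0.00852), Hexa (-0.39 ± 0.06, adjusted p = 0.000652), Neu1 (-0.39 ± 0.08, adjusted p = 0.0136), Naglu (-0.35 ± 0.09, adjusted p = 0.0496) and Ctsa (-0.34 ± 0.06, adjusted p = 0.00114). Grn, Ctsb, Tpp1, Psap, Ctsl, Ctsd and Gaa followed at -0.30 to -0.24, with an adjusted p of 0.00315 to 0.0272. In 22 members all ApoM libraries lay below all CYM50358 libraries, beside 9.45% of all genes, and in Ctsc they lay above, beside 10% of all genes. edgeR on whole reads called the members other than Naglu (adjusted p = 0.0553), beside 2.2% of all genes. Neu1 had 26.4, 29.1 and 28.3 with ApoM, under the 35.9 to 37.9 with CYM50358.

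With the replicate number as a block, taking same-numbered libraries as pairs, 17 members were lower in ApoM, beside 8.46% of all genes called in either direction. They were the 12 and Arsa, Gusb, Lgmn, Lipa and Manba. Without ApoM replicate 1, or without CYM50358 replicate 2, only Ctsa, Grn and Hexa passed, with the other 9 at 0.0631 to 0.338 and 0.0545 to 0.134. Without ApoM replicate 2, Ctsd, Ctsl, Gaa, Naglu and Psap did not pass (0.0972 to 0.15), and without CYM50358 replicate 3, Ctsd, Gaa, Naglu and Psap did not (0.0562 to 0.108). Among the companion lists Cstb (-0.31, adjusted p = 0.0112), Mcoln1 (-0.33, 0.0213) and Rragd (-0.60, 0.0487) were lower with ApoM. Without ApoM replicate 1 these 3 stood at 0.0948, 0.14 and 0.245, without ApoM replicate 2 at 0.0591, 0.103 and 0.0572, and without CYM50358 replicate 2 at 0.0512, 0.139 and 0.177. Rragd was also lost without ApoM replicate 3 (0.118) or CYM50358 replicate 3 (0.126).

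Between the genotypes the members moved in both directions. Relative to Col4a3+/+ cells, 9 members rose and 8 fell in Col4a3-/- cells, beside 44.7% of all 14313 genes that changed (22.6% rose and 22% fell), so that the share among the members is near that of all genes. By role, 1 protease rose and 2 fell, 4 glycosidases rose and 5 fell, 2 sulfatases rose, 1 lipid enzyme rose and 1 thioesterase fell, and 1 activator rose. The summed signal was 5895 to 6143 in Col4a3+/+ cells and 6249 to 6770 in Col4a3-/- cells, and that of the 3 activators 1321 to 1498 against 1724 to 1902. Members had a median log2 fold change of -0.04, beside 0.0029 over all genes. In 9 members the Col4a3-/- libraries lay above all Col4a3+/+ libraries and in 10 below, beside 27.9% and 27.8% of all genes. In the authors' deposited list of results 9 members were higher and 7 lower, beside 29.9% of all genes that changed in either direction. With the replicate number as a block, taking same-numbered libraries as pairs, Ctsb, Gaa and Galns passed too, beside 49.2% of all genes. Mitochondrial reads made up 0.882% to 1.68% in Col4a3+/+ and 1.30% to 2.02% in Col4a3-/- libraries, the 11 podocyte markers summed to 2465 to 2918 and 2058 to 2244, and the 10 leukocyte and macrophage markers to 24.1 to 28.7 and 30.7 to 36.7, with Cd14 higher and Csf1r lower. Endothelial markers summed to 7.85 to 11.1 and 1.09 to 1.65, with Erg lower (-2.22 ± 0.15, adjusted p = 6.17e-06). Mesangial and fibroblast markers summed to 5771 to 7907 and 6831 to 7913, with Col1a1 higher (4.22 ± 0.15, adjusted p = 8.58e-08) and Pdgfrb lower (-1.12 ± 0.05, adjusted p = 6.2e-07). Tubular markers summed to 321 to 382 and 376 to 525, with Cdh16 higher (1.49 ± 0.16, adjusted p = 9.44e-05). Of 9 podocyte markers tested, 2 rose and 5 fell, with log2 fold changes from -2.64 to 2.33. The part of these shifts in the result was not tested.

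Among the proteases, Ctsc, the dipeptidyl peptidase that activates granule proteases of leukocytes, had a signal of 20.3, 13.6 and 18.5 in Col4a3+/+ and 9.17, 6.95 and 6.88 in Col4a3-/- cells. It fell by 1.08 on the log2 scale (SE 0.16, adjusted p = 0.000544), the largest change among the members. Ctsz, a carboxypeptidase, had 82.8, 77.2 and 79.0 against 112, 109 and 115 and rose by 0.48 ± 0.05 (adjusted p = 9.12e-05). The gene Nelfcd overlaps Ctsz with 21.9% of its mean signal, so the share of each in the other is uncertain. Lgmn had 105, 103 and 98.3 against 92.7, 91.1 and 81.7 (-0.21 ± 0.06, adjusted p = 0.0234). Its call was lost without Col4a3-/- replicate 3 (0.0861) or Col4a3+/+ replicate 2 (0.0675). The other 9 proteases, among them the abundant Ctsd, Ctsl and Ctsb, did not pass and lay between -0.17 and 0.06.

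Among the glycosidases, Neu1 had 47.0, 53.4 and 48.9 in Col4a3+/+ and 30.1, 29.7 and 27.5 in Col4a3-/- cells and fell by 0.75 (SE 0.07, adjusted p = 3.64e-05). Galc, which removes galactose from galactosylceramide and is lost in Krabbe disease, had 50.3, 56.6 and 57.8 against 36.6, 40.3 and 33.1 and fell by 0.57 (SE 0.08, adjusted p = 0.000623). In both genes the groups were far apart. Aga, which cuts the bond between asparagine and its sugar chain, had 56.6, 58.6 and 55.2 against 85.7, 88.1 and 80.1 and rose by 0.57 ± 0.06 (adjusted p = 6.12e-05). Man2b1, the acid alpha-mannosidase, had 68.8, 82.4 and 72.0 against 114, 105 and 112 and rose by 0.56 ± 0.07 (adjusted p = 0.000279).

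Smaller changes were seen in Idua (0.49) and Manba (0.28), which rose, and in Gla (-0.43), Naglu (-0.26) and Hexa (-0.19), which fell. Gla, the enzyme of Fabry disease, had 8.86, 10.1 and 9.18 in Col4a3+/+ cells and 7.04, 5.84 and 7.24 in Col4a3-/- cells. Manba lost its call without Col4a3-/- replicate 1 (0.0965), Col4a3+/+ replicate 2 (0.0941) or Col4a3+/+ replicate 3 (0.0707). Hexa lost it without Col4a3-/- replicate 2 (0.102), Col4a3-/- replicate 3 (0.0959) or Col4a3+/+ replicate 2 (0.08), and Naglu without Col4a3-/- replicate 2 (0.0604). Idua overlaps Dgkq, a kinase gene with 819% of its signal that rose by a like amount (0.48 ± 0.10, adjusted p = 0.00314), so its value is uncertain.

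The sulfatase Arsa, which removes sulfate from sulfatide, had 29.8, 31.9 and 31.5 in Col4a3+/+ and 61.4, 55.4 and 55.7 in Col4a3-/- cells. Its rise of 0.87 ± 0.06 (adjusted p = 9.34e-06) was the largest among the members. Arsb, the sulfatase of dermatan and chondroitin sulfate, had 54.2, 48.3 and 50.3 against 66.7, 59.8 and 66.2 and rose by 0.33 ± 0.07 (adjusted p = 0.00367). Galns, Ids and Sgsh did not pass, at -0.21, -0.14 and 0.15.

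Lipa had 62.2, 68.2 and 63.9 against 122, 115 and 111 and rose by 0.84 ± 0.06 (adjusted p = 6.8e-06), the smallest adjusted p of the 37. Ppt1, the thioesterase that takes palmitate off proteins, had 115, 126 and 126 against 103, 101 and 96.8 and fell by 0.28 (SE 0.06, adjusted p = 0.00334). The gene Cap1 overlaps it with 314% of its signal and fell as well (-0.27 ± 0.06, adjusted p = 0.00566), so that value too is uncertain. Psap had 1052, 1190.5 and 1096 against 1614, 1506 and 1461 and rose by 0.46 ± 0.08 (adjusted p = 0.00188). Neither Lipa, Ppt1 nor Psap showed overlap between the genotypes, whereas Grn (-0.05) and Gm2a (-0.22) did.

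**Figure D5:**
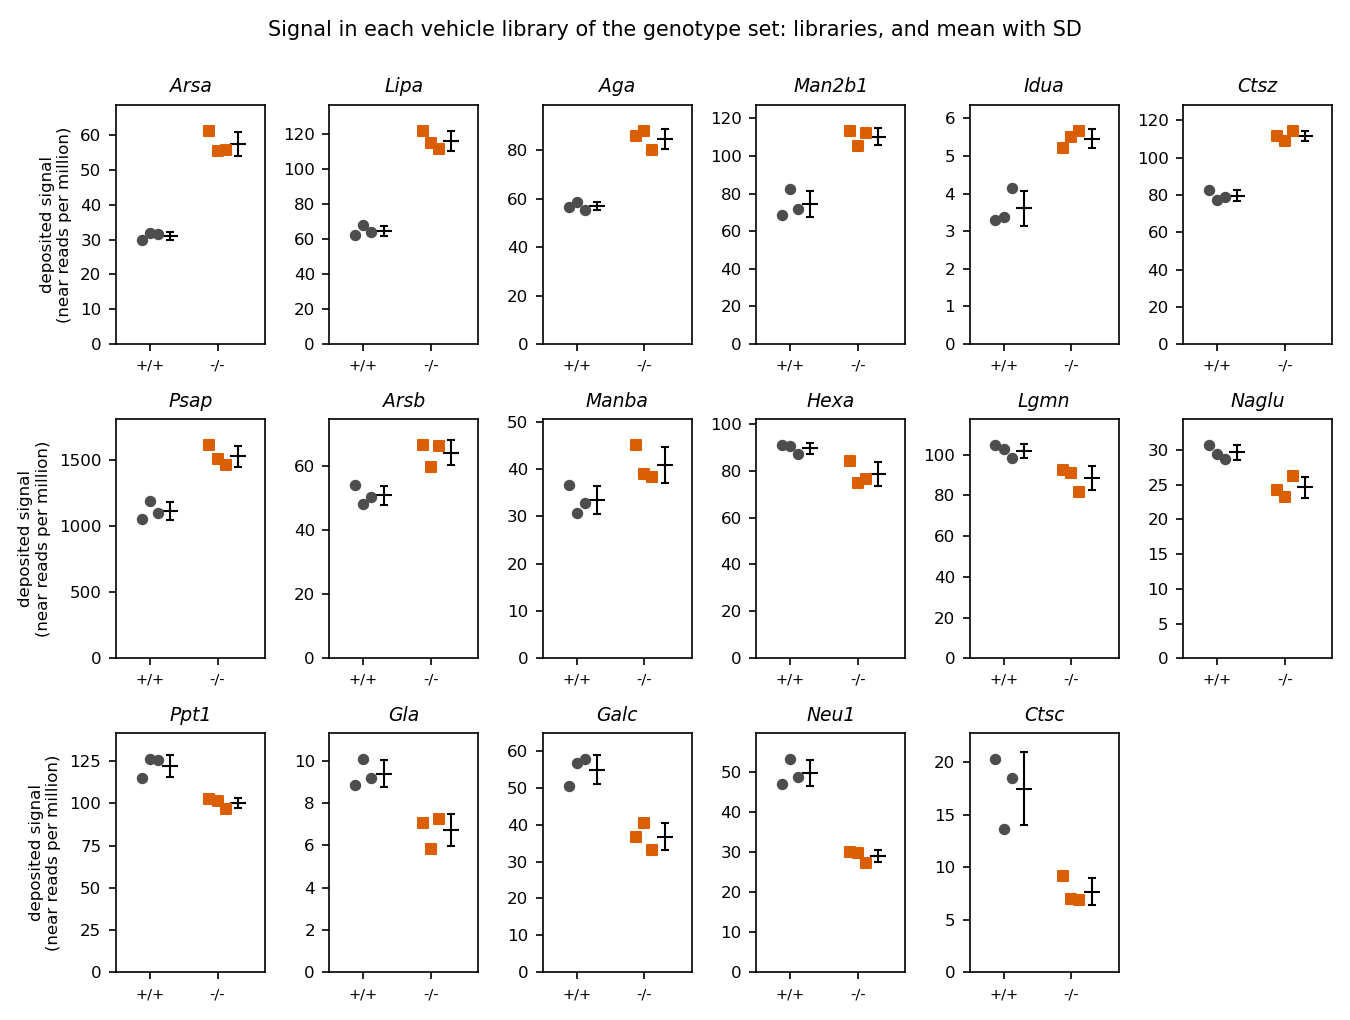
Signal (vertical axes, from 0) in each of the 6 Vehicle libraries of the genotype set for the 17 members that differed between Col4a3+/+ (circles) and Col4a3-/- (squares) podocytes, from the largest rise (Arsa) to the largest fall (Ctsc); the black mark is the mean with its SD (n = 3). The genotypes do not overlap in any panel, and Arsa, Lipa and Ctsc differ most, by 0.87, 0.84 and -1.08 on the log2 scale.

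Genes of a chromosome tended to move together between the genotypes: the median log2 fold change of all genes was 0.28 on chromosomes 8 and 10, 0.17 on chromosomes 5, 15 and 19, -0.16 on chromosome 4 and -0.17 on chromosome 6. Copy number was not tested. With each chromosome's median subtracted, 7 of the 37 members were called higher and 10 lower, beside 37.6% of all genes called in either direction. Of the 17 earlier calls of members, 13 remained. Aga and Man2b1, both on chromosome 8, were then each at 0.28 (adjusted p = 0.00262 and 0.0111), Arsa at 0.69 and Lipa at 0.66. The calls of Psap on chromosome 10 (0.17, adjusted p = 0.118), Idua on chromosome 5 (0.33, 0.0504), Ppt1 on chromosome 4 (-0.11, 0.138) and Lgmn on chromosome 12 (-0.16, 0.0601) were lost. Ctsf (-0.34), Galns (-0.49), Gusb (-0.20) and Pla2g15 then passed, and Pla2g15 changed its sign from 0.08 to -0.21 (adjusted p = 0.0266).

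The Vehicle-treated Col4a3-/- cells of the treatment set share no scale with the genotype set, so their levels are set beside it without a test. Lipa had 128 to 137 there and Arsa 50.9 to 66.6, near the 111 to 122 and 55.4 to 61.4 of the Col4a3-/- cells of the genotype set. Neu1 (28.0 to 31.1) and Psap (1522 to 1679) also lay near them. Aga had 59.0 to 62.2, nearer to the 55.2 to 58.6 of Col4a3+/+ cells, and Idua 2.54 to 3.50, nearer to their 3.29 to 4.15. Lgmn and Hexa, which fell within the genotype set (-0.21 and -0.19), had log2 differences of 0.20 and 0.11 from Col4a3+/+ cells here. Ctsd had 589 to 639, under both groups of the genotype set (817 to 908), while Scpep1 had 98.9 to 107, over both (66.9 to 78.6).

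Of the 16 tagging and sorting genes 6 rose and 3 fell between the genotypes, of which 2 and 2 remained with chromosome medians subtracted. Over all genes 44.7% were called (22.6% rose and 22% fell), and 37.6% with the medians subtracted. The 37.6% is a share of genes called and not of calls kept. Igf2r, the large mannose 6-phosphate receptor, had a signal of 122, 94.1 and 103 in Col4a3+/+ and 239, 183 and 219.9 in Col4a3-/- cells (1.00 ± 0.11, adjusted p = 0.000121). M6pr, the smaller receptor, had 191, 212 and 197 against 127, 137 and 127 (-0.61 ± 0.06, adjusted p = 4.57e-05). Scarb2, a lysosomal membrane protein that carries cargo there without that tag, had 88.9, 94.9 and 90.4 against 192, 172 and 182 (0.98 ± 0.06, adjusted p = 2.1e-06). Gga2, a sorting adaptor, fell (-0.52 ± 0.08, adjusted p = 0.000634). In these 4 genes the genotypes did not overlap, and all 4 kept their calls with chromosome medians subtracted. Ap1m1, Ap1g1, Cln8, Gnptab and Sort1 did not, while Ap1s1 passed only then (-0.24, adjusted p = 0.0106).

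Among the further hydrolases 6 of 18 rose and 1 fell, beside 22.6% and 22% of all genes. With chromosome medians subtracted 4 and 1 of these calls were kept. Over all genes 37.6% were called then, which is not a share of calls kept. The genes of this list that rose were led by Cpq, a carboxypeptidase (0.47 ± 0.06, adjusted p = 0.00017), Naaa, an acid amidase (0.69 ± 0.08, adjusted p = 0.000215), and Prcp, a carboxypeptidase (0.50 ± 0.09, adjusted p = 0.00172). Next came Hgsnat (0.29 ± 0.05, adjusted p = 0.00217), which is counted in this list but is an acetyltransferase of heparan sulfate breakdown and not a hydrolase. Hgsnat had 52.3, 55.5 and 56.1 in Col4a3+/+ and 68.3, 65.5 and 67.2 in Col4a3-/- cells, without overlap, but lies on chromosome 8 and was at 0.0045 (adjusted p = 0.956) with chromosome medians subtracted, where Plbd2 was lost as well and Asah1, acid ceramidase, turned from 0.12 to -0.17 and passed (adjusted p = 0.0496). Of 5 cathepsin inhibitors 3 rose, beside 22.6% of all genes: Serpinb1a (1.07 ± 0.18, adjusted p = 0.00146), Cstb (0.42 ± 0.08, adjusted p = 0.00305) and Serpinb6a (0.31 ± 0.07, adjusted p = 0.00689). Cstb did not pass with chromosome medians subtracted (0.13, adjusted p = 0.213). Of the 2 sulfatase-modifying factors Sumf1, which activates all sulfatases, fell (-0.24 ± 0.08, adjusted p = 0.0369) with overlap between the groups, and did not pass with chromosome medians subtracted (-0.06, adjusted p = 0.528). The other, Sumf2, on chromosome 5, went from -0.17 (adjusted p = 0.076) to -0.34 (adjusted p = 0.00506) with the medians subtracted. Without Col4a3-/- replicates 2 or 3 or Col4a3+/+ replicates 2 or 3 its adjusted p was 0.0817, 0.142, 0.105 and 0.128.

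Of the TFE factors and their regulators 3 rose and 3 fell, beside 22.6% and 22% of all genes. With chromosome medians subtracted 2 and 1 of these calls were kept. Over all genes 37.6% were called then, which is not a share of calls kept. Mcoln1 had 30.9, 32.5 and 32.3 in Col4a3+/+ and 41.6, 44.2 and 41.2 in Col4a3-/- cells (0.40 ± 0.06, adjusted p = 0.000691), but lies on chromosome 8 and was at 0.11 (adjusted p = 0.143) with chromosome medians subtracted. Tfec, a low-level TFE factor, fell by 1.08 (SE 0.22, adjusted p = 0.00352), while Fnip2, a partner of folliculin (0.55 ± 0.13, adjusted p = 0.00644), and Zkscan3, a zinc finger repressor of lysosomal genes (0.24 ± 0.06, adjusted p = 0.0141), rose. Zkscan3 did not pass without Col4a3-/- replicate 2 (0.0584). Tfeb (0.06, adjusted p = 0.649) and Mitf (-0.09, 0.638) did not pass. Rragc (-0.06, adjusted p = 0.503) and Tfe3 (-0.13, 0.148) were among those lost, and Fnip1 passed only then (0.20, adjusted p = 0.0389). Tfe3 fell (-0.20 ± 0.07, adjusted p = 0.044), but passed in only 1 of the 6 fits without 1 library: without Col4a3-/- replicates 1, 2 or 3 it stood at 0.0631, 0.15 and 0.0823, and without Col4a3+/+ replicates 1 or 3 at 0.0996 and 0.0792.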

How the data were processed

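Libraries of 15 samples were made from total RNA with the Nugen Universal Plus mRNA-Seq kit, per the labels' protocols; the submitters' processing notes name mm39, STAR, Trim Galore, FastQC and edgeR, with no versions. Strand use in counting is not given in the sources used here. The 3 tables of the whole series hold 1 column of signal per library, as the authors deposited it; its unit is not named, and it sums to 972556 to 1026942 per library. Dividing by the smallest step of a library gave whole reads for 100% of values (tolerance 0.01), 45417221 to 83166742 per library; these counts were recovered from the deposited signal. Columns for base means, log2 fold changes and their errors, a test score and p-values were deposited as well, per the file headers. The 3 Vehicle columns common to both treatment tables were identical and used once. Columns per sample left unused numbered 0.

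The design named edgeR for counts or limma for normalized values; as the values are signal, limma 3.58.1 (R 4.3.3) with a trend was fitted to log2(signal + 1) in the libraries of both groups, for genes at 0.5 or more in 3 or more of them; p was adjusted by Benjamini-Hochberg over all genes and called at 0.05. Alternatives were TMM scaling, a pseudocount of 0.1, no minimum, edgeR 4.0.16 and DESeq2 1.42.0 on whole reads, each library left out, a replicate block, all 9 treatment libraries in 1 fit and chromosome medians subtracted. The fits were tested on simulated data. Signal per kilobase used exon lengths of GENCODE M21 (GRCm38) and serves to order genes only.

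The titles number the replicates. Libraries of the same number had correlations of deviations from group means of 0.371, 0.217 and 0.105 between the genotypes. Between ApoM and CYM50358 these were 0.132, 0.115 and 0.132. All lay above 0.1, and on that ground the numbers were taken as possible pairs, used in the replicate block only. The main fits took no pairs. With Vehicle of the treatment set the numbers were not taken to pair. Col4a3+/+ replicate 3 correlated more with Col4a3-/- replicate 2 (0.197) than with replicate 3, so the pairing of the genotypes is uncertain. Between ApoM and CYM50358, libraries of different numbers reached at most -0.0134. As deviations were taken from group means, a positive value for same-numbered libraries lowers the others, so this adds no separate support for pairs.

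The members and companion lists were chosen with earlier results of these data known. Members given in full were those called with the largest changes (up to 4 per role between the genotypes, up to 10 otherwise, or the 3 smallest p where fewer than 3 were called); from companion lists, up to 4 called genes per comparison and Tfeb, Tfe3 and Mitf. Overlapping genes were named where they carried a sizeable share of a member's signal, from 10.8% (Fdft1 over Ctsb) upward. Tmppe, not named above, overlaps Glb1 with 30.7% of its mean signal. Some genes of the companion and marker lists are not reported here and were left out of the lists' counts.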

Additional observations from a re-analysis of the deposited data

How the results depend on the processing

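Under TMM scaling and a pseudocount of 0.1 all calls of members held in the 4 comparisons. Without the minimum signal, 0 members passed after CYM50358 (11 with it) and 0 between ApoM and CYM50358 (12 with it), and all genes called numbered 1, 6 and, for ApoM against Vehicle, 0 (359, 360 and 6 with it). DESeq2 called 763, 639 and 19 genes in these 3 comparisons. With all 9 treatment libraries in 1 fit, 596 genes were called after CYM50358 and 0 for ApoM, and Naglu and Psap did not pass between ApoM and CYM50358 (limma adjusted p 0.056 to 0.0625). Without the minimum signal Hexa and Manba did not pass between the genotypes (0.0525 to 0.0623). With the replicate block the counts over all genes were 1174 between ApoM and CYM50358 and 17 for ApoM against Vehicle; among members the block added 3 calls between the genotypes (Ctsb, Gaa and Galns) and 5 in the direct comparison and ended none. Where same-numbered libraries did not correlate (Vehicle of the treatment set with ApoM, 0.135, -0.122 and 0.0921, or with CYM50358, 0.0938, -0.161 and -0.0305), the block changed no member's call.

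Leaving out 1 library at a time gave 3 to 12 members higher after CYM50358, 3 to 12 lower in ApoM relative to CYM50358, and 8 to 10 higher and 6 to 12 lower between the genotypes; all genes called ranged from 78 to 474, from 130 to 542, from 4833 to 6387 between the genotypes, and from 0 to 12 for ApoM. With chromosome medians subtracted, the sign turned in Pla2g15 (-0.21), Asah1 (-0.17), Gnptab (-0.034) and Ap1g1 (-0.11) between the genotypes. The cause of these shifts was not tested, except that leaving out the minimum signal adds low genes to the fit and to the adjustment. Groups of 3 limit the precision, and a member that missed the threshold is not shown to be unchanged.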
